A study of Rattus norvegicus with 17 samples.

Results

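The genes that copy DNA and carry a cell into S phase were followed in the meibomian gland (MG) of 17 female rats. They are 43 genes chosen by function, and 42 of them are among the 17251 listed genes. E2f1 was not analysed here. Of the wild-type (WT) animals 4 were controls and 3 received UVB, and of the P1.hMR animals 5 were controls and 5 received UVB (called Control or UVB with the genotype below), all on the Sprague-Dawley background, aged 10 to 12 weeks per the labels, and the glands were sequenced as bulk RNA. P1.hMR rats carry the human mineralocorticoid receptor (MR) under the proximal P1 promoter of NR3C2, which is active wherever MR is made and so is not limited to the gland. In the UVB groups the upper eyelids were shaved and irradiated daily for 5 days before the glands were taken, and control rats of the same age and sex received no UVB. The methods do not say whether the controls were shaved, so shaving and UVB cannot be told apart here. The methods count eyes for the UVB groups and rats for the controls, and the study's reporting summary has either 1 eye used or both eyes of an animal pooled into 1 sample, without saying which holds for each library.

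Replication starts in G1, when the origin recognition complex, CDC6 and CDT1 load the MCM2-7 helicase onto origins, a step called licensing. In S phase CDC45 and GINS join the helicase, primase and the polymerases extend the new strands, the PCNA clamp holds the polymerases on DNA, and FEN1 and LIG1 join the Okazaki fragments. Cyclin E with its kinase CDK2 drives entry, and many genes of this programme carry binding sites for E2F factors in their promoters. In the MG, cells at the rim of the acinus divide and their daughters fill with lipid and break down as meibum, and lipid-laden meibocytes make up most of the gland.

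Promoters show what these genes share in sequence. In RefSeq promoters of the GRCr8 assembly, which run from 250 bases before to 50 bases after the gene start, 36 of the 42 genes matched by symbol. An E2F-type motif, taken as TTTCCCGC, TTTCGCGC, TTTGGCGC or TTTGCCGC on either strand, was found in 15 of the 36, which is 41.7%, against 2.25% of all 27457 promoters. The promoters of 3 genes of the MCM helicase are shown because each holds such matches and each rose after UVB in P1.hMR rats. The promoter of Pcna is shown because it is the most abundant of the genes and has no match in this window. Capitals mark the E2F-type matches, which overlap where they lie on opposite strands. Mcm5 lies at chr19:13488563-13488862 on the plus strand, Mcm6 at chr13:42404303-42404602 on the minus strand, Mcm3 at chr9:30733697-30733996 on the minus strand and Pcna at chr3:139955771-139956070 on the minus strand, and each sequence is read 5′ to 3′ in the direction of the gene.
Mcm5: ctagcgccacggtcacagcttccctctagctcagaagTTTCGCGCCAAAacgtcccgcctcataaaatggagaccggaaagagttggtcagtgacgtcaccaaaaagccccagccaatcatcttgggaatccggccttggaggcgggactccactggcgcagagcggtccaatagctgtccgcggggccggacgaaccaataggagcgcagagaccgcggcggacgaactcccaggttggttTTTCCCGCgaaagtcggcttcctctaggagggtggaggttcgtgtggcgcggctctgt
Mcm6: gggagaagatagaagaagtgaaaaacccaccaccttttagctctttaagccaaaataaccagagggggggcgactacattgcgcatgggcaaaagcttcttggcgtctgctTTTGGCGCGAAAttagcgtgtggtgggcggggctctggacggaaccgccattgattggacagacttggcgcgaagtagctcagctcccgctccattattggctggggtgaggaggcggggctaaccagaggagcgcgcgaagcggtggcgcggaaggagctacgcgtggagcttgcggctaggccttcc
Mcm3: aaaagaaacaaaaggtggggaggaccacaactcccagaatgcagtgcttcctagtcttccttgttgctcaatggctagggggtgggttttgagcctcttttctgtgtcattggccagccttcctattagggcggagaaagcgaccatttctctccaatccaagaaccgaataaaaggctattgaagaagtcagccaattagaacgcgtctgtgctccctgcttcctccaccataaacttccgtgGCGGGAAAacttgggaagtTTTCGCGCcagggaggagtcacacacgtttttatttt
Pcna: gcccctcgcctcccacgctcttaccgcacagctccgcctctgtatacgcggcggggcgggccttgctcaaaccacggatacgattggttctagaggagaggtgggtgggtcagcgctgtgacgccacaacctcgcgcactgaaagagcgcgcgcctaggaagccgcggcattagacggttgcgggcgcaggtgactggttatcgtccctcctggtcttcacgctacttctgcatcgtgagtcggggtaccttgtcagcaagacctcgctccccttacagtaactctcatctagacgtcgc

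Counted from the gene start, the Mcm5 matches begin at bases -213, -209 and -8, the Mcm6 matches at -139 and -135, and the Mcm3 matches at -6 and 14. The ATTGG box, the core of a CCAAT box, was present in 58.3% of the 36 promoters and in 37.7% of all promoters. The CHR-type motif (TTTGAA or TTCGAA), known from promoters of genes used in mitosis, was present in 16.7% of the 36 and in 19.5% of all promoters. In 25 promoters of mitosis genes the shares ran the other way, with 4% holding an E2F-type match and 72% a CHR-type match. A match is a string of letters and was not tested as a binding site.

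**Figure D1:**
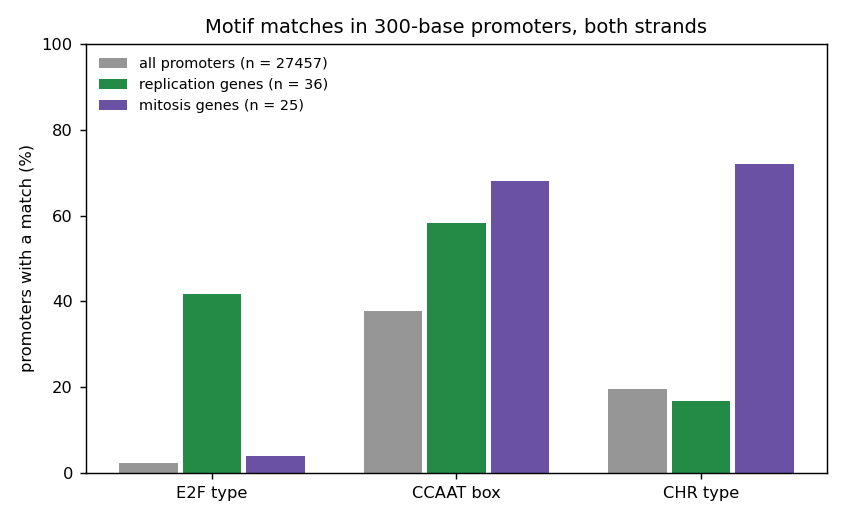
Share of RefSeq promoters (percent, y axis) with at least 1 match to each motif on either strand, for all promoters, the replication and S-phase genes and the mitosis genes. The replication genes stand at 41.7% for the E2F type and the mitosis genes at 72% for the CHR type, against 2.25% and 19.5% of all promoters.

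The human transgene was listed at 0 TPM in all WT rats, at 6.77 to 9.31 TPM in Control P1.hMR and at 5.31 to 8.93 TPM in UVB P1.hMR rats. Each rat had 12372 to 12737 genes at 1 TPM or more, and meibocyte genes were abundant, with Scd, the stearoyl-CoA desaturase, at a mean of 26941 TPM. TPM, a share of all transcripts, is scaled by transcript length, so levels of different genes can be set side by side, but it keeps no read counts, and the methods give the mapped reads only as a range that is not tied to single rats, so no depth can be set beside a value. The precision therefore comes from the spread between rats.

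Without UVB, all 42 genes were expressed. Over the 9 control rats their mean levels ran from 1.14 TPM for Orc1, the ATPase subunit of the origin recognition complex, to 91.4 TPM for Pcna, with a median of 11.2 TPM against 8.53 TPM for all listed genes. Next to Pcna stood Rrm1, the large subunit of ribonucleotide reductase, at 40.4 TPM, Prim1, the catalytic primase subunit, at 36.1 TPM, and Mcm7 at 33.1 TPM. Rats of 1 group lay close together, and the median coefficient of variation over the 42 genes was 11.6% among WT controls, 9.34% among P1.hMR controls, 13.7% after UVB in WT and 13.6% after it in P1.hMR.

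After UVB the replication genes were shifted upward in both genotypes, most of them by little, and ribonucleotide reductase subunit Rrm2, cyclin E1 (Ccne1), Orc1 and Mcm5 rose in both. Of the 42 genes, all of which passed the filter on low values, 5 were called higher and 0 lower in WT, and 9 were called higher and 0 lower in P1.hMR. A gene was called at an adjusted p under 0.05 (limma, Benjamini-Hochberg over 13105 genes) and an absolute log2 change of at least 0.5. In WT these 5 were 11.9% of the genes, where 3.92% of all genes tested were called higher and 3.98% lower. In P1.hMR the 9 were 21.4%, where 5.05% of all genes were called higher and 5.71% lower. None of the 42 fell with an unadjusted p under 0.05 (limma) in either genotype, whereas 19 in WT and 34 in P1.hMR were higher at that level. Such p-values were common over all 13105 genes, with 4622 in WT and 6244 in P1.hMR counting both directions.

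The shift was broad and shallow. The log2 change was above 0 for 38 of the 42 genes in WT and for 40 in P1.hMR, where 51.2% and 47.1% of all genes tested were. The medians were 0.25 and 0.35, where those of all genes tested were 0.0054 and -0.016. Changes ran from -0.16 to 1.32 in WT and from -0.068 to 1.54 in P1.hMR, lowest for Rfc1 and highest for Rrm2 in both. With the fold threshold dropped, 11 genes passed in WT and 29 in P1.hMR, all higher, which is 26.2% and 69.0% of the 42, against 11.2% and 18.5% of all genes. Every UVB rat lay above every control rat for 17 genes in WT (40.5%) and 16 in P1.hMR (38.1%), where 14% and 13.2% of all genes did so. In bulk tissue, fewer or more cells of a type and less or more RNA per cell cannot be told apart.

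**Figure D2:**
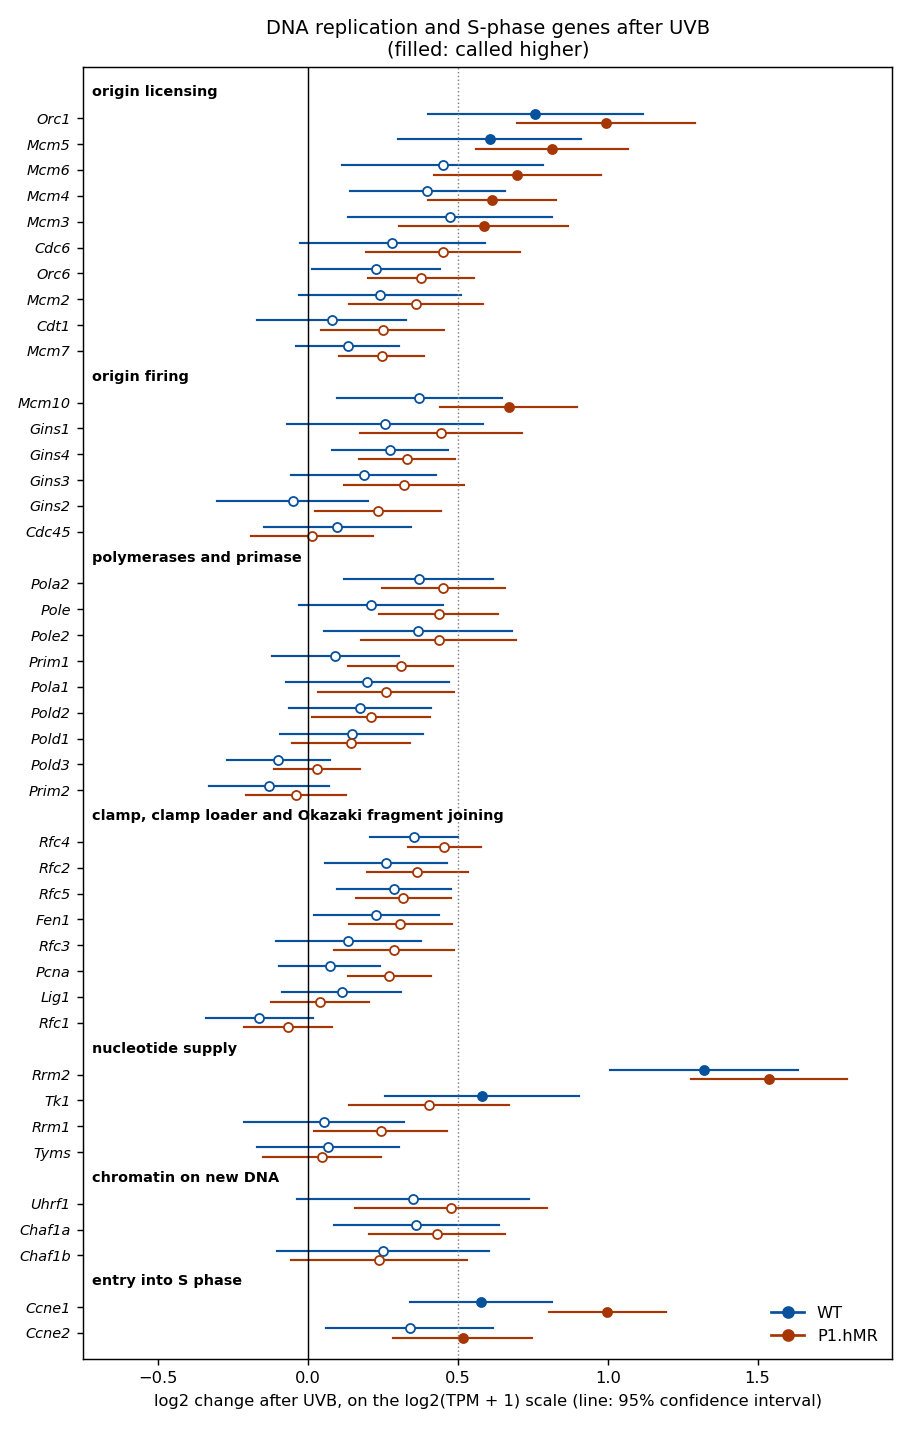
The log2 change after UVB of the 42 genes by role (x axis, log2(TPM + 1) scale) in WT and P1.hMR, with 95% confidence intervals, where filled points were called higher. Rrm2 stands farthest right at 1.32 and 1.54, and most of the other points lie between 0 and 0.5, which is the dotted line.

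Averaged over the 42 genes on the log2(TPM + 1) scale, the rats stood at 3.37 to 3.55 in Control WT, 3.32 to 3.45 in Control P1.hMR, 3.60 to 3.87 in UVB WT and 3.52 to 3.92 in UVB P1.hMR. The groups did not overlap within a genotype. UVB P1.hMR rat 2, at 3.52, was lowest of its group in 33 of the 42 genes, and UVB WT rat 1, at 3.87, was highest of its group in 36. Without UVB WT rat 1, 3 of the 5 calls in WT remained (Rrm2, Orc1 and Ccne1), and 13 genes were called in P1.hMR without UVB P1.hMR rat 2 and 7 without rat 4, the highest of that group.

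**Figure D3:**
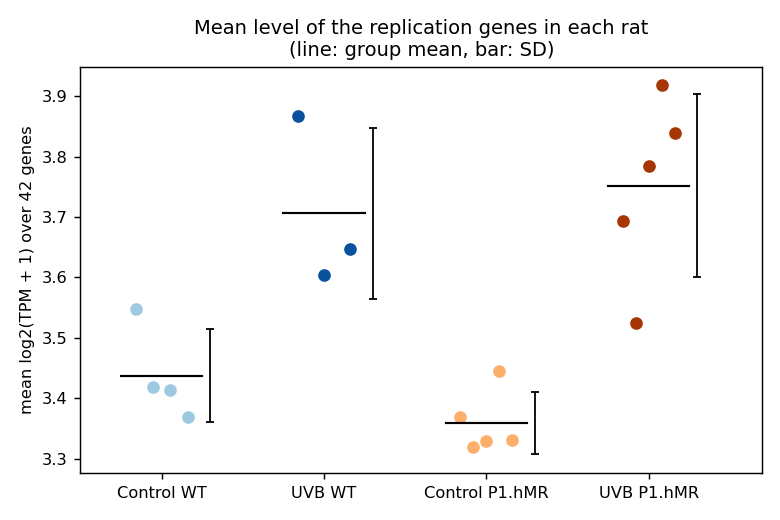
Mean log2(TPM + 1) over the 42 genes (y axis) in each rat (points) by group, with the group mean (line) and SD (bar). The UVB WT rats sit at 3.60 to 3.87 and the UVB P1.hMR rats at 3.52 to 3.92, each group above its own controls.

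Of the 10 licensing genes, 2 were called higher in WT (20%) and 5 in P1.hMR (50%), with medians of 0.34 and 0.52. Over all genes tested 3.92% and 5.05% were called higher, shares that also stand beside the counts of the roles below. Orc1 was the lowest in level and among the largest in change. It was at 1.51, 1.24, 1.07 and 0.99 TPM in Control WT and 3.30, 2.13 and 2.80 TPM in UVB WT. In P1.hMR it was at 1.16, 1.43, 1.12, 0.83 and 0.92 TPM without UVB and 2.21, 2.35, 3.47, 4.32 and 3.79 TPM after it. The groups did not overlap in either genotype, and UVB P1.hMR rats 1 and 2 were the low ones of their group. Orc1 rose by 0.76 (SE 0.17, adjusted p = 0.00542) in WT and 0.99 (SE 0.14, adjusted p = 5.75e-05) in P1.hMR on the log2(TPM + 1) scale, which understates the change of a gene this low. As a plain ratio of mean TPM the rise was 2.28-fold and 2.96-fold.

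The 6 subunits of the MCM2-7 ring, which are used in equal parts in the helicase, had changes of different size, and the spread among them was not tested. Mcm5 had the largest. It was at 13.7, 11.8, 11.5 and 10.4 TPM in Control WT and 21.7, 17.2 and 16.9 TPM in UVB WT, and at 11.2, 10.1, 9.97, 11.5 and 10.2 TPM in Control P1.hMR and 17.8, 13.7, 20.96, 24.1 and 22.01 TPM in UVB P1.hMR. No UVB rat fell into the range of its controls, although UVB P1.hMR rat 2 came near. Mcm5 rose by 0.61 (SE 0.14, adjusted p = 0.00776) in WT and 0.81 (SE 0.12, adjusted p = 8.03e-05) in P1.hMR, and without UVB WT rat 1 the WT change was 0.498 (adjusted p = 0.0406, limma), just under the fold threshold.

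Mcm6 was at 18.7, 13.2, 12.97 and 12.7 TPM in Control WT and 24.3, 15.8 and 20.02 TPM in UVB WT, and at 13.1, 12.1, 13.4, 14.1 and 11.9 TPM in Control P1.hMR and 21.04, 15.95, 22.7, 26.9 and 22.5 TPM in UVB P1.hMR. Control WT rat 1 was far above its group and overlapped with the UVB WT rats, while the P1.hMR groups were apart. Its change was 0.45 (SE 0.16, adjusted p = 0.0527) in WT, not called, and it rose by 0.70 (SE 0.13, adjusted p = 0.000601) in P1.hMR. In WT it was called at 0.50 with sample weights, at 0.57 without Control WT rat 1 (adjusted p = 0.0138) and at 0.60 without UVB WT rat 2 (adjusted p = 0.0241).

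Mcm4 and Mcm3 followed. Mcm4 was at 21.9, 16.5, 16.97 and 16.4 TPM in Control WT and 27.4, 21.5 and 22.7 TPM in UVB WT, and at 15.4, 16.4, 15.8, 18.8 and 15.9 TPM in Control P1.hMR and 24.4, 20.7, 25.8, 30.5 and 28.1 TPM in UVB P1.hMR. Again it was Control WT rat 1 that reached into the UVB WT range, and the P1.hMR groups were apart. The change of Mcm4 was 0.40 (SE 0.12, adjusted p = 0.0293) in WT, under the fold threshold, and it rose by 0.61 (SE 0.10, adjusted p = 0.000204) in P1.hMR. Mcm3 was at 13.9, 11.1, 11.8 and 10.8 TPM in Control WT, 20.8, 14.6 and 15.7 TPM in UVB WT, 10.1, 10.1, 10.9, 13.8 and 9.36 TPM in Control P1.hMR and 15.8, 12.1, 17.1, 21.5 and 17.97 TPM in UVB P1.hMR. Here the WT groups were apart, and UVB P1.hMR rat 2 lay below Control P1.hMR rat 4. The change of Mcm3 was 0.47 (SE 0.16, adjusted p = 0.0447) in WT and it rose by 0.59 (SE 0.13, adjusted p = 0.00250) in P1.hMR. Mcm3 was called in WT, at 0.50 to 0.57, in 4 of 26 alternative fits (without Control WT rat 1, without UVB WT rat 2, with a pseudocount of 0.1 and with the replicate block), and its call in P1.hMR was lost, at 0.497, without UVB P1.hMR rat 4.

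Mcm2 and Mcm7 had smaller changes and were not called. Mcm2 was at 19.9 ± 2.76 TPM (SD, n = 4) in Control WT, 23.7 ± 3.64 (n = 3) in UVB WT, 18.2 ± 0.64 (n = 5) in Control P1.hMR and 23.9 ± 4.13 (n = 5) in UVB P1.hMR. Its change was 0.24 (SE 0.13, adjusted p = 0.191) in WT and 0.36 (SE 0.11, adjusted p = 0.0128) in P1.hMR. Mcm7 was the most abundant licensing gene, and its change was 0.13 (SE 0.081, adjusted p = 0.262) in WT and 0.25 (SE 0.067, adjusted p = 0.00846) in P1.hMR.

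The loaders of the ring were not called. For Cdc6, the ATPase that loads it with ORC, the log2 changes were 0.28 and, in P1.hMR, 0.45 (adjusted p = 0.183 and 0.00766, limma). As for Orc1, this scale understates the change of so low a gene, and its ratios of mean TPM were 1.34 and 1.60. Cdc6 was called in P1.hMR, at 0.54 to 0.63, in 2 of 26 alternative fits (with a pseudocount of 0.1 and without UVB P1.hMR rat 2). Cdt1, its partner, was far more abundant, at 26.4 ± 5.04 TPM (SD, n = 4) against 1.77 ± 0.35 TPM in Control WT, and changed by 0.079 and 0.25, and Orc6 by 0.23 and 0.38.

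Of the 6 origin firing genes, 0 were called in WT and 1 in P1.hMR, with medians of 0.22 and 0.33. Mcm10, which helps to turn the loaded helicase into an active fork, was at 2.53, 2.36, 2.12 and 1.72 TPM in Control WT and 3.64, 2.50 and 3.23 TPM in UVB WT. In P1.hMR it was at 2.02, 1.70, 2.22, 2.35 and 2.43 TPM without UVB and 3.30, 3.49, 4.01, 4.78 and 4.50 TPM after it. UVB WT rat 2 lay inside the control range, whereas all UVB P1.hMR rats were above their controls. Its change was 0.37 (SE 0.13, adjusted p = 0.0523) in WT and it rose by 0.67 (SE 0.11, adjusted p = 0.000172) in P1.hMR.

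The other helicase partners differed among themselves. The change was 0.26 and 0.44 for Gins1, 0.19 and 0.32 for Gins3, and 0.27 and 0.33 for Gins4 in WT and P1.hMR, and the adjusted p was under 0.05 for all 3 in P1.hMR and for Gins4 in WT. Gins2 had -0.051 and 0.23. Cdc45, which completes the active helicase, was at 3.88 ± 0.82 TPM (SD, n = 4) in Control WT, 4.18 ± 0.54 (n = 3) in UVB WT, 4.12 ± 0.40 (n = 5) in Control P1.hMR and 4.17 ± 0.32 (n = 5) in UVB P1.hMR. The 95% interval of its change was -0.15 to 0.34 in WT and -0.19 to 0.22 in P1.hMR, so a rise as large as that of Mcm5 lies outside both intervals.

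No polymerase or primase gene was called among 9 in either genotype, with medians of 0.17 and 0.26. Pola2, the regulatory subunit of polymerase alpha, was the highest in change, with 0.37 (SE 0.12, adjusted p = 0.0344) in WT and 0.45 (SE 0.097, adjusted p = 0.00173) in P1.hMR. It was called in P1.hMR, at 0.50 to 0.52, in 3 of 26 alternative fits (with a pseudocount of 0.1, without Control P1.hMR rat 4 and without UVB P1.hMR rat 2). Pole, the catalytic subunit of the leading strand polymerase, was at 2.88, 2.73, 2.85 and 2.78 TPM in Control WT and 4.29, 2.91 and 3.13 TPM in UVB WT, and at 2.43, 2.38, 2.35, 2.59 and 2.56 TPM in Control P1.hMR and 3.45, 2.81, 4.05, 4.32 and 3.93 TPM in UVB P1.hMR. All UVB rats were above their controls in both genotypes, by a small margin for UVB WT rat 2. The change of Pole was 0.21 (SE 0.11, adjusted p = 0.20) in WT and 0.44 (SE 0.094, adjusted p = 0.00169) in P1.hMR, where leaving out UVB P1.hMR rat 2 brought it to 0.51 and a pseudocount of 0.1 to 0.56, both past the threshold.

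Pole2, its second subunit, had changes of 0.37 and 0.44 with adjusted p = 0.0874 and 0.0100 (limma). With a pseudocount of 0.1 it was called in P1.hMR, at 0.58. Prim1 had 0.091 and 0.31, Pola1 0.20 and 0.26, and the polymerase delta genes Pold1 and Pold2 0.15 and 0.17 in WT and 0.14 and 0.21 in P1.hMR. Prim2, the other primase subunit, had -0.13 and -0.041, and Pold3 -0.099 and 0.030. Both subunits of primase are used together, and the 95% intervals in P1.hMR were 0.13 to 0.48 for Prim1 and -0.21 to 0.12 for Prim2, and the difference between them was not tested.

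The clamp, its loader and the genes that join Okazaki fragments gave 0 calls among 8, with medians of 0.18 and 0.30. Pcna, often used as a mark of dividing cells, moved little. It was at 114, 92.00, 94.6 and 86.6 TPM in Control WT and 111, 99.9 and 93.6 TPM in UVB WT, and at 84.00, 88.2, 82.9, 94.3 and 85.6 TPM in Control P1.hMR and 108, 100.3, 109, 109 and 100.4 TPM in UVB P1.hMR. Control WT rat 1 was the highest of all 17 rats and the WT groups overlapped, while the P1.hMR groups did not. The change was 0.072 (SE 0.079, adjusted p = 0.553) in WT and 0.27 (SE 0.066, adjusted p = 0.00398) in P1.hMR, a 1.21-fold ratio of mean TPM in the latter.

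Rfc4, a subunit of the clamp loader, had small changes with narrow errors. It was at 20.2, 20.8, 21.3 and 21.2 TPM in Control WT and 28.7, 26.6 and 25.6 TPM in UVB WT, and at 18.04, 18.9, 17.5, 20.3 and 20.7 TPM in Control P1.hMR and 26.2, 24.97, 25.2, 26.1 and 30.2 TPM in UVB P1.hMR. Neither pair of groups overlapped. The change was 0.35 (SE 0.069, adjusted p = 0.00239) and 0.45 (SE 0.057, adjusted p = 2.22e-05), under the fold threshold in both.

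Among the other loader subunits the change in WT and P1.hMR was 0.29 and 0.32 for Rfc5, 0.26 and 0.36 for Rfc2, and 0.13 and 0.29 for Rfc3. Rfc1, the large subunit, had -0.16 and -0.068 (adjusted p = 0.179 and 0.470, limma). Of the 42 genes, Rfc1 was the 1 for which every UVB WT rat lay below every Control WT rat. Over all 13105 genes tested, 1649 did so. Fen1, the flap nuclease, had 0.23 and 0.31. Lig1, which seals the last nick, had 0.11 and 0.040, with 95% intervals of -0.086 to 0.31 and -0.13 to 0.20.

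The 4 nucleotide supply genes held the largest change of all and one of the smallest, with medians of 0.32 and 0.32. Rrm2, the small subunit of ribonucleotide reductase and the one whose level follows the cell cycle, had the largest change of the 42 genes in both genotypes. It was at 16.3, 13.1, 15.6 and 11.2 TPM in Control WT and 40.9, 33.2 and 35.3 TPM in UVB WT. In P1.hMR it was at 13.4, 11.2, 14.97, 15.1 and 12.04 TPM without UVB and 34.3, 32.4, 43.6, 48.2 and 45.7 TPM after it. No UVB rat was below 32.4 TPM and no control rat above 16.3 TPM, so the groups were far apart in both genotypes. Rrm2 rose by 1.32 (SE 0.15, adjusted p = 4.55e-05) in WT and 1.54 (SE 0.12, adjusted p = 4.60e-07) in P1.hMR, ratios of mean TPM of 2.59 and 3.07.

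Its partner Rrm1, the large subunit, was not called in either genotype. Rrm1 was at 47.5, 44.8, 40.5 and 36.2 TPM in Control WT and 55.6, 35.9 and 41.7 TPM in UVB WT, and at 41.4, 35.8, 39.5, 41.1 and 36.3 TPM in Control P1.hMR and 44.5, 38.8, 46.8, 53.1 and 48.3 TPM in UVB P1.hMR. The groups overlapped in both genotypes, and UVB WT rat 1 alone stood above the rest of the WT rats. The change of Rrm1 was 0.053 (SE 0.13, adjusted p = 0.801) in WT, where the sign turned without UVB WT rat 1 (-0.12) or without Control WT rat 4 (-0.016), and 0.24 (SE 0.10, adjusted p = 0.0777) in P1.hMR. The mean level of Rrm2 was 13.3 ± 1.73 TPM (SD, n = 5) against 38.8 ± 2.62 TPM for Rrm1 in Control P1.hMR, and 40.9 ± 7.06 against 46.3 ± 5.24 TPM in UVB P1.hMR, so the subunits stood near the same level after UVB.

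Tk1, the S-phase thymidine kinase of the salvage route, passed the threshold in WT but not in P1.hMR, and no other of the 42 genes did so. It was at 16.9, 18.7, 20.8 and 17.8 TPM in Control WT and 36.9, 24.5 and 24.7 TPM in UVB WT, and at 21.4, 17.4, 21.9, 21.2 and 16.9 TPM in Control P1.hMR and 23.2, 20.5, 28.4, 29.5 and 31.5 TPM in UVB P1.hMR. UVB WT rat 1 was far above its 2 group mates, and UVB P1.hMR rat 2 lay within its controls. Tk1 rose by 0.58 (SE 0.15, adjusted p = 0.0134) in WT and its change was 0.40 (SE 0.13, adjusted p = 0.0187) in P1.hMR. Without UVB WT rat 1 the WT change was 0.39 (adjusted p = 0.0778), and the difference between genotypes was -0.18 (95% interval -0.60 to 0.24, adjusted p = 0.896). Tyms, thymidylate synthase of the de novo route, had changes of 0.068 and 0.047.

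**Figure D4:**
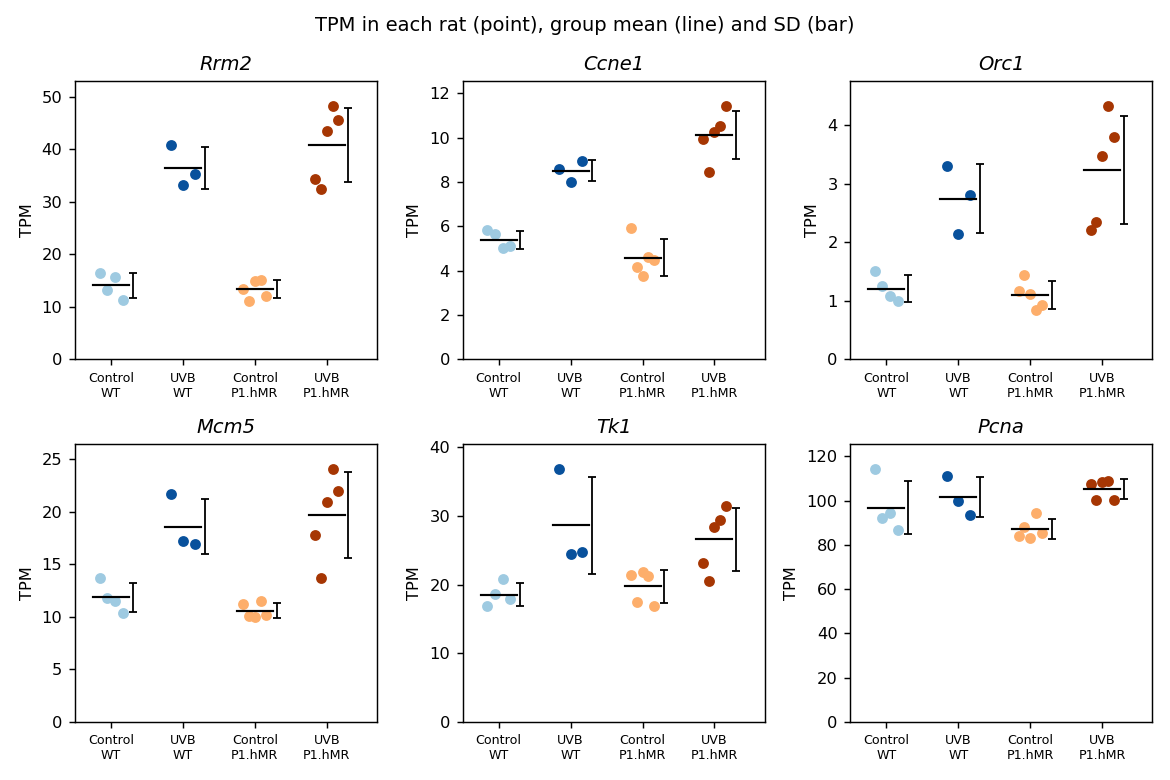
TPM of 6 genes in each of the 17 rats (points) by group, with the group mean (line) and SD (bar), y axes from 0. Rrm2 stands at 33.2 TPM or more in UVB WT rats and at 16.3 TPM or less in Control WT rats, whereas Pcna overlaps between the WT groups.

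The 3 genes that rebuild chromatin on new DNA were not called in either genotype. Chaf1a, the large subunit of the histone chaperone CAF-1, was at 7.59, 7.73, 7.28 and 7.69 TPM in Control WT, 11.4, 9.66 and 9.07 TPM in UVB WT, 7.72, 6.68, 6.73, 8.29 and 7.48 TPM in Control P1.hMR and 10.1, 7.39, 10.4, 13.3 and 10.95 TPM in UVB P1.hMR. The WT groups were apart, and UVB P1.hMR rat 2 lay inside its control range. The change of Chaf1a was 0.36 (SE 0.13, adjusted p = 0.0568) in WT and 0.43 (SE 0.11, adjusted p = 0.00481) in P1.hMR. Chaf1b, its partner, had 0.25 and 0.24. Uhrf1, which carries DNA methylation over to the new strand, had 0.35 (SE 0.18, adjusted p = 0.185) and 0.48 (SE 0.15, adjusted p = 0.0201), and it was called in P1.hMR, at 0.51 to 0.57, in 6 of 26 alternative fits, which were those without UVB rat 1, UVB rat 2 or Control rat 4 and those with a pseudocount of 0.1, quantile normalization or sample weights.

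Both cyclin E genes rose in P1.hMR, and Ccne1 also in WT. Ccne1 was at 5.81, 5.63, 5.01 and 5.09 TPM in Control WT and 8.57, 8.01 and 8.97 TPM in UVB WT. In P1.hMR it was at 5.94, 4.17, 3.74, 4.61 and 4.47 TPM without UVB and 9.93, 8.46, 10.3, 10.5 and 11.4 TPM after it. All UVB rats exceeded all controls of both genotypes. Ccne1 rose by 0.58 (SE 0.11, adjusted p = 0.00220) in WT and 1.00 (SE 0.092, adjusted p = 1.71e-06) in P1.hMR, and it was called in both genotypes in all 26 alternative fits. Ccne2 was at 2.39, 2.06, 1.81 and 1.99 TPM in Control WT, 3.04, 2.57 and 3.00 TPM in UVB WT, 2.14, 1.60, 2.27, 2.04 and 1.99 TPM in Control P1.hMR and 2.47, 4.36, 2.70, 3.62 and 3.56 TPM in UVB P1.hMR. The groups were apart in both genotypes, with UVB P1.hMR rat 2 the highest of all for this gene and the lowest of its group for most others. The change of Ccne2 was 0.34 (SE 0.13, adjusted p = 0.0775) in WT and it rose by 0.52 (SE 0.11, adjusted p = 0.00149) in P1.hMR, a call that was kept in 20 of 26 alternative fits.

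Whether the response to UVB differed between the genotypes was tested by the interaction, and 0 of the 42 genes were called (limma), as were 0% of all genes tested. The log2 change was larger in P1.hMR than in WT for 36 of the 42, with a median difference of 0.12. The 2 UVB comparisons use different rats, but the genes of a rat move together, so these 36 are not independent. Only Ccne1 had an unadjusted p under 0.05, with a difference of 0.42 (95% interval 0.12 to 0.73, unadjusted p = 0.00985, adjusted p = 0.704, limma). For Rrm2 the difference was 0.22 (-0.19 to 0.62), for Orc1 0.24 (-0.23 to 0.70), for Mcm5 0.21 (-0.19 to 0.60) and for Mcm10 0.30 (-0.059 to 0.66). The intervals of these last 4 genes hold 0 and also differences near the size of a called change, and that of Ccne1 lies above 0 before adjustment only. No difference in response passed the adjusted test, neither for the 4 genes called in both genotypes nor for the 5 called in P1.hMR but not in WT (Mcm3, Mcm4, Mcm6, Mcm10 and Ccne2). All 5 had changes above 0 in WT, 2 of them with an adjusted p under 0.05.

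The genotypes were also compared directly, in comparisons that share their rats with those above. Under UVB, 0 of 42 genes were called between P1.hMR and WT, where 0.0229% of all genes were. The differences ran from -0.13 for Tyms to 0.28 for Mcm10 with a median of 0.043, and only Mcm10 had an unadjusted p under 0.05 (0.0369, adjusted p = 0.450, limma). Without UVB, 0 of 42 were called, where 0.00763% of all genes were, and 0 had an unadjusted p under 0.05 (limma). There 39 of the 42 had a difference below 0, that is a lower value in P1.hMR, where 6701 of all 13105 genes did. The median over the 42 was -0.077, with a range from -0.20 for Ccne1 to 0.083 for Cdc45. Control WT rat 1 was the highest of its group for 27 of the 42 genes. Ccne1 was thus at -0.20 (95% interval -0.41 to 0.0043) between genotypes without UVB and at 0.22 (-0.0059 to 0.44) under UVB.

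Other genes of the cell cycle were read from lists chosen by function. For each list the share of all genes tested that was called higher is again 3.92% in WT and 5.05% in P1.hMR. Of 37 other replication genes, 3 were called higher in WT (8.11%) and 4 in P1.hMR (10.8%) and 0 lower, with medians of 0.16 and 0.23. Asf1b, a histone chaperone, rose by 0.88 (SE 0.16, adjusted p = 0.00137) and 0.81 (SE 0.13, adjusted p = 0.000157), and Dbf4, the activator of the origin firing kinase CDC7, by 0.78 (SE 0.14, adjusted p = 0.00147) and 0.59 (SE 0.12, adjusted p = 0.000963). Clspn, a checkpoint mediator at the fork, rose by 0.67 and 0.63. Dctpp1, which clears modified dCTP, rose by 0.72 (SE 0.14, adjusted p = 0.000918) in P1.hMR, where the groups overlapped. In WT its change was 0.499 (SE 0.17, adjusted p = 0.0489), just under the fold threshold, and the groups were apart. The interaction was 0.22 (adjusted p = 0.880, limma).

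Of 16 other genes tied to cell cycle entry, a list that includes the repressor E2f8, 3 were called higher in WT (18.75%). In P1.hMR 5 were called higher (31.25%), and 0 were called lower in either genotype. Mybl2, a transcription factor of the S to G2 programme, rose by 1.28 (SE 0.17, adjusted p = 0.000161) and 1.30 (SE 0.14, adjusted p = 5.57e-06), from 2.76 ± 0.52 TPM (SD, n = 4) to 8.10 ± 1.11 TPM (n = 3) in WT. Ccna2, cyclin A2, rose by 0.75 and 0.75, and E2f8, an E2F family member that represses E2F targets, by 0.67 and 0.76. In P1.hMR E2f2 and Tfdp1, the latter the dimer partner of E2F factors, rose by 0.65 and 0.57. Their changes in WT were 0.49 and 0.44 (adjusted p = 0.0413 and 0.000208, limma), under the fold threshold. Neither interaction passed the adjusted test (adjusted p = 0.915 and 0.786, limma).

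Of 13 brakes of cell cycle entry, 1 was called higher in WT (7.69%) and 2 in P1.hMR (15.4%), with medians of -0.051 and -0.044. Cdkn1c, the CDK inhibitor p57, rose by 1.08 (SE 0.13, adjusted p = 0.000115) in WT and 0.54 (SE 0.11, adjusted p = 0.00124) in P1.hMR, and Ccng1, cyclin G1 and a target of p53, by 0.60 (SE 0.075, adjusted p = 2.02e-05) in P1.hMR. Cdkn1a, the CDK inhibitor p21, was at 191 ± 25.7 TPM (SD, n = 4) in Control WT and 213 ± 18.7 (n = 3) in UVB WT, a change of 0.16, and its change was 0.36 in P1.hMR. Cdkn1b, the CDK inhibitor p27, was lower after UVB, under the fold threshold, at -0.30 (SE 0.078, adjusted p = 0.0122) in WT and -0.25 (SE 0.065, adjusted p = 0.00699) in P1.hMR, and all UVB WT rats lay below all Control WT rats while the P1.hMR groups overlapped.

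The mitosis genes had larger medians and a larger share of calls than the replication genes, a difference that was not tested. Of 29, 21 were called higher in WT (72.4%) and 18 in P1.hMR (62.1%) and 0 lower, with medians of 0.69 and 0.57. All 29 had changes above 0 in both genotypes. Plk1, the polo-like kinase, rose by 0.99 (SE 0.17, adjusted p = 0.00116) and 0.68 (SE 0.14, adjusted p = 0.00135), Cenpe, a kinetochore motor, by 0.85 and 0.80, and Incenp, the scaffold of the chromosomal passenger complex, by 0.69 and 0.84. Mki67, the source of the Ki-67 mark, had 0.41 and 0.19 and was not called.

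**Figure D5:**
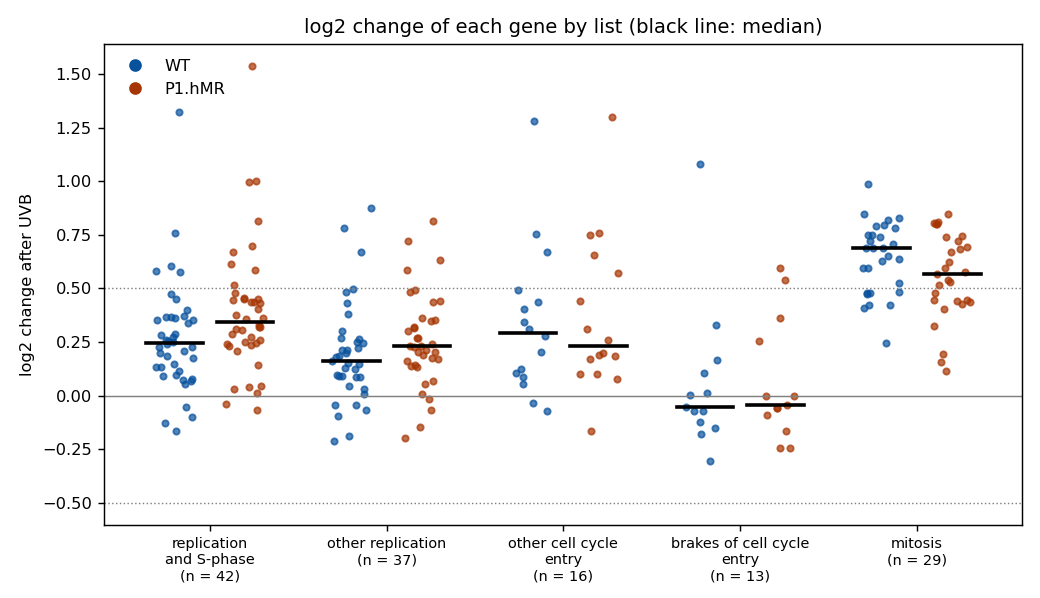
The log2 change after UVB (y axis) of each gene in 5 lists, in WT and P1.hMR, with the median of each list as a black line and dotted lines at 0.5 and -0.5. The medians are 0.25 and 0.35 for the replication and S-phase genes and 0.69 and 0.57 for the mitosis genes.

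Markers of cell types also differed between UVB and control rats, and shaving of the eyelids is stated for the UVB groups only. Over all genes tested, 3.92% were called higher and 3.98% lower in WT, and 5.05% and 5.71% in P1.hMR. All 9 listed hair follicle genes were called lower in WT and 7 of 9 in P1.hMR, and their summed level was 790 to 1099 TPM in Control WT, 316 to 828 in UVB WT, 688 to 1276 in Control P1.hMR and 428 to 721 in UVB P1.hMR. Basal epithelial genes (Krt5, Krt14, Itga6, Itgb4 and Col17a1), which mark the layer that divides, gave 0 calls of 5 (limma), with summed levels of 8038 to 10247, 10506 to 11607, 8701 to 9945 and 8313 to 13370 TPM in the same order. With the fold threshold dropped, 2 of the 5 passed as higher in WT and 3 in P1.hMR, against 11.2% and 18.5% of all genes. Their median changes were 0.24 and 0.22, and 2 of the 5 had changes below 0 in each genotype. UVB P1.hMR rat 2, with the lowest mean of the replication genes in its group, also had the lowest basal sum. It had the highest meibocyte sum of its group, at 42299 TPM.

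Macrophage genes gave 3 calls higher of 8 in each genotype, with sums of 76.9 to 143 TPM in Control WT, 108 to 189 in UVB WT, 81.1 to 139.7 in Control P1.hMR and 142 to 217 in UVB P1.hMR. Of 4 tested T cell genes, 2 were called higher in each genotype. Fibroblast genes gave 4 calls higher of 5 in WT, and 3 higher and 1 lower in P1.hMR. Among meibocyte genes Elovl3 was called higher and Awat2 lower of 8. Their summed level was 40773 to 48954 TPM in Control WT and 37395 to 43747 in UVB WT. In P1.hMR it was 40324 to 44958 TPM without UVB and 35661 to 42299 after it. Skeletal muscle gave 1 call lower of 6, and endothelium 0 of 4. No listed marker was at 0 in every rat, and the part of these cell types in the change of the replication genes was not tested.

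The E2F-type match can also be set beside the changes, as a description only. The 15 genes with a match had medians of 0.20 (WT) and 0.32 (P1.hMR), and the 21 without a match had 0.23 and 0.31. Left out of both sets were the 6 genes with no promoter entry: Rrm2, Orc1, Mcm4, Ccne2, Cdc6 and Gins4. Rrm2 had the largest change of the 42 genes, so these medians do not cover the whole set. Among the genes without a match were Ccne1, Tk1 and Mcm10, and among those with a match Lig1, Tyms and Pold3, whose changes were near 0.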

How the data were processed

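RNA from the MG of 17 female rats in 4 groups was compared, with 1 deposited column per rat and groups taken from the labels. The authors deposited TPM for 17251 genes, written with a decimal comma and 2 decimals, and no further normalization is stated. Their methods name STAR and RSEM on rn7, while the submitters' processing notes name Trimmomatic, DRAGEN, Picard and FastQC, so the aligner behind the table cannot be settled. TPM keeps no counts, and the depth of single libraries is not in the files; the methods give mapped reads as 1 range only. The replicates are rats by label, and p-values measure the spread between them.

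Values were analysed as log2(TPM + 1). The 13105 genes that reached 1 TPM in 3 rats or more entered limma 3.58.1 in R 4.3.3, with a mean for each group, a variance trend and Benjamini-Hochberg adjustment over all genes, two-sided. A call needed an adjusted p under 0.05 and an absolute log2 change of at least 0.5. The test was checked on simulated data. The genes and lists were chosen with earlier results of these data known. Full statistics went to at most 6 called genes with the largest rise in each UVB comparison, to the most abundant gene and the one with the largest interaction in each role, and to up to 3 called genes of each other list. Other genes given with their values in every rat (Mcm3, Mcm4, Ccne2, Rfc4, Chaf1a) or named from other lists (Clspn, E2f2, Tfdp1, Cdkn1a, Cdkn1b, Mki67) were chosen after their values were seen. Promoters came from RefSeq tables (GRCr8) and were searched on both strands. Protein sequences were not used here.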

Additional observations from a re-analysis of the deposited data

Results flagged for a closer look

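Among 126 sets of values (42 genes in each of the 3 groups with 4 or 5 rats), 10 held a rat that stood apart from its group by Dixon's criterion, where chance at 1 in 20 gives 6.3. Control WT rat 1 was the high one in 3 of them, all subunits of the MCM helicase. It had 24.01 TPM of Mcm2 where the other Control WT rats had 18.1 to 18.97, 21.9 TPM of Mcm4 where they had 16.4 to 16.97, and 18.7 TPM of Mcm6 where they had 12.7 to 13.2. Control P1.hMR rat 4 was high for Mcm4, at 18.8 TPM against 15.4 to 16.4 in its group, and low for Gins1, at 6.37 TPM against 6.76 to 6.88. UVB P1.hMR rat 2 was low for Pold2, at 17.3 TPM against 22.5 to 23.8, and for Lig1, at 16.6 TPM against 20.6 to 22.2. UVB P1.hMR rat 3 was high for Pole2, at 3.96 TPM against 3.13 to 3.25. UVB P1.hMR rat 5 was high for Rfc4, at 30.2 TPM against 24.97 to 26.2. Control WT rat 4 was low for Fen1, at 10.04 TPM against 12.5 to 13.04. The UVB WT group, with 3 rats, was not searched in this way.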

How the results depend on the processing

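The median change of the 42 genes moved by less than the spread between rats in all 50 alternative values, from 0.17 to 0.29 in WT and from 0.31 to 0.42 in P1.hMR when 1 rat was left out. Leaving out 1 rat gave 3 to 7 genes higher in WT (3 without UVB WT rat 1) and 7 to 13 in P1.hMR. A pseudocount of 0.1 raised the count in P1.hMR from 9 to 14. Without a fold threshold the counts were 11 and 29, and at an absolute log2 change of at least 1 they were 1 and 1. No gene was called lower, between genotypes or for the interaction under any alternative. A mean of at least 5 TPM left Orc1, Mcm10 and Ccne2 untested. Over all genes, 1036 were called in WT and 1410 in P1.hMR, 690 and 882 with a mean of at least 5 TPM, 2820 and 5123 without a fold threshold, and 219 and 300 at an absolute log2 change of at least 1. Of the single genes with full statistics, Rrm1 in WT changed sign, to -0.016 without Control WT rat 4 and -0.12 without UVB WT rat 1 (0.19 without UVB WT rat 2), and the cause was not tested. Among these genes Mcm5 and Tk1 lost the call in WT without UVB WT rat 1, while calls were gained by Uhrf1 in P1.hMR under 6 of 26 alternatives, by Mcm6 in WT under 3 and by Pole in P1.hMR under 2. Between each control group and its UVB group the rats' numbers showed no pairing. Same-numbered rats correlated at -0.19 to 0.054 in WT and -0.13 to 0.030 in P1.hMR, and 0 of 3 and 0 of 5 correlated best with their own number. Between the genotypes the range was -0.13 to 0.058 under UVB (0 of 3). Without UVB it was 0.042 to 0.24, and 3 of 4 correlated best with their own number, so a link by number between the 2 control groups was not excluded. With the replicate block, 6 genes were called higher in WT and 9 in P1.hMR, with medians of 0.27 and 0.35, and 0 for every other count. With no depth per library, its part in the values of low genes was not tested, and the UVB WT group holds 3 rats.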
